A study of Mus musculus with 11 samples.

Results

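The 9 genes described here encode ligands and receptors of the interleukin 1, 18 and 33 systems, without the interleukin 18 receptor. They were taken by symbol from a table of 38406 genes, and all 9 were found and passed the minimum level for testing. They are the agonist ligands Il1a and Il1b, the antagonist Il1rn, the ligands Il18 and Il33, the receptors Il1r1 and Il1rl1, the shared receptor subunit Il1rap and the decoy receptor Il1r2. The 11 RNA-seq libraries were made from back skin of C57BL/6 female mice aged 8 to 10 weeks, 5 of them wild type (replicates 2 to 6) and 6 Trex2 KO (replicates 7 to 12). Trex2 encodes a DNA exonuclease made mainly in keratinocytes, and the mutant strain is written Trex2-/- in the protocols. Both groups received imiquimod: shaved backs were dosed daily with 125 mg of 5% cream for 4 days, and samples were taken 24 hours after the last application. Imiquimod is an agonist of the innate receptor TLR7 that produces psoriasis-like inflammation in mouse skin. Skin without imiquimod is not analysed here, so every comparison is between genotypes within treated skin. The design text calls the libraries of each group biological replicates.

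Interleukin 1 alpha is held ready-made in keratinocytes and acts when it is released or shown at the cell surface. Interleukin 1 beta and interleukin 18 are made as precursors that caspase 1 cuts in the inflammasome, and neutrophils and macrophages are the main makers of interleukin 1 beta. Both forms of interleukin 1 bind the receptor encoded by Il1r1, which recruits the accessory subunit encoded by Il1rap and signals through Myd88 to NF-kB. The antagonist encoded by Il1rn occupies the same receptor without recruiting that subunit, and the decoy encoded by Il1r2 binds ligand but lacks the signalling domain. Interleukin 33 is a nuclear protein of barrier cells that binds ST2, the product of Il1rl1, again with the accessory subunit. Transcript levels say nothing of cleavage or release, which also control these ligands.

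Depth was 1208896 to 5853454 counted reads for the wild-type libraries and 3125366 to 15557862 for the knockout libraries. Values are normalized counts, which are reads divided by 1 size factor per library. The targeted gene had 1125 to 2196 normalized counts per wild-type library and 0.794 to 3.47 per knockout library. All 28 keratinocyte markers on the lists used here had reads in every library. Knockout replicates 9 and 12 had the highest summed basal keratinocyte markers (181418 and 165680 normalized counts). The other knockout libraries had 59734 to 111082, and wild type had 38187 to 93658. Knockout replicates 9 and 12 also had 2 of the 3 lowest sums of neutrophil markers (42189 and 19088), with knockout replicate 10 between them (37996). Wild-type replicate 4 had the highest sum of suprabasal keratinocyte markers in its group (26152, with 15229 in the next, replicate 2), while for basal markers replicates 4 and 2 were close (93658 and 90104). Results are therefore also given without knockout replicates 9 and 12. These 2 libraries were picked from the same data and are also extreme for the members. Leaving them out therefore moves most differences by construction, and it is a description rather than a test. In whole skin, fewer cells of a type and less RNA per cell cannot be told apart.

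Il1a and Il1b lie near each other on the minus strand of chromosome 2 (GRCm38, GENCODE M21), Il1a from 129299610 to 129309972 and Il1b from 129364570 to 129371139. Il1rn lies far from them on the plus strand of chromosome 2, from 24336853 to 24351494. The 3 receptor genes Il1r2 (40074079 to 40125231), Il1r1 (40225080 to 40317257) and Il1rl1 (40429570 to 40465415) lie in this order on the plus strand of chromosome 1. Il1rap is on chromosome 16 (26581704 to 26730117), Il18 on chromosome 9 (50554827 to 50581840) and Il33 on chromosome 19 (29925114 to 29960718). The annotation gives between 1 transcript (Il1a) and 7 (Il1rap) per gene. The table has 1 value per gene, so secreted and intracellular forms of the antagonist, or soluble and membrane forms of ST2, are counted together.

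The promoters below belong to the 2 members whose levels followed each other most closely over the 11 libraries (Il1a and Il1rn), to the most abundant ligand (Il1b) and to a ligand with a positive difference (Il33). Each is the 250 bases before a RefSeq transcript start on GRCm38.p6, written 5′ to 3′ on the strand of the gene. Capitals mark matches on either strand to the motifs TGANTCA (AP-1), TTGCNNAA (C/EBP), GGG followed by any 5 bases and CC (NF-kB), and GAAA followed by any 2 bases and GAAA (interferon response element).
Il1a (chr2:129309973-129310222, minus strand): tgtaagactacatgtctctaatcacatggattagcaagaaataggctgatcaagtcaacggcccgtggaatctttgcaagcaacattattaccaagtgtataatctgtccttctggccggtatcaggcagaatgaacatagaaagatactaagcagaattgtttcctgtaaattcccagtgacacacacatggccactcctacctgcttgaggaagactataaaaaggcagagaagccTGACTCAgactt
Il1rn (chr2:24336610-24336859, plus strand): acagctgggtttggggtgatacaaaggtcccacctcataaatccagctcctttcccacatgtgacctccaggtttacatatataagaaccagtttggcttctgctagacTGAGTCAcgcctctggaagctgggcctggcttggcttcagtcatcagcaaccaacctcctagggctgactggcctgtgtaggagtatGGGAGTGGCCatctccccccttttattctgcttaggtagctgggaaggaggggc
Il1b (chr2:129371140-129371389, minus strand): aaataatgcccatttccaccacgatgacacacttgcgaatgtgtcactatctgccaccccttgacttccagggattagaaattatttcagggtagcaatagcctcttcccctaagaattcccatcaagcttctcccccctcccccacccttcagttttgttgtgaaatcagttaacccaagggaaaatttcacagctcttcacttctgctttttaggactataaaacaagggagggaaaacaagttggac
Il33 (chr19:29924863-29925112, plus strand): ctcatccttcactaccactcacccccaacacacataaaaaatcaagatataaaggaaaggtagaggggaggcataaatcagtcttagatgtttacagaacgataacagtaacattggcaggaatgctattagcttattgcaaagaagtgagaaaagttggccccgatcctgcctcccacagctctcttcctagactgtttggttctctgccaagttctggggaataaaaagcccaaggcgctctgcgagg

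The AP-1 letters TGACTCA began 12 bases before the start of Il1a, and TGAGTCA began 141 bases before the start of Il1rn. No other window among the 14 of the 9 genes held an AP-1 match, and 6.75% of all 32851 promoter windows of this length did. The Il1rn window also held GGGAGTGGCC, 1 of 4 member windows with a match to the NF-kB letters, which are loose enough to occur in 45.8% of all windows. The windows shown for Il1b and Il33 held no match to any of the 4 motifs. C/EBP letters were in 3 of the 14 windows (1 each of Il1r1, Il1rl1 and Il33) and in 9.56% of all windows. The interferon element was in none of the 14 and in 2.98% of all windows. A match is a description of letters, and no binding was measured.

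The levels of the 9 genes spanned a wide range once they were divided by exon length. Il1b was highest in wild-type skin, with 1559 ± 497 normalized counts per kb of exon (SD, n = 5), and the decoy Il1r2 came next with 1098 ± 387. Il33 followed at 522 ± 140. Below them came Il1a (325 ± 44.2), Il1rn (246 ± 47.9), Il1r1 (189 ± 50.1), Il1rl1 (106 ± 40.3), Il18 (80.8 ± 34.4) and Il1rap (39.8 ± 6.57), all per kb. The ranges of neighbours in this order overlapped between libraries except for Il33 and Il1a, where all 5 libraries had more Il33. Every wild-type library had more Il1r2 per kb (648 to 1511) than any had Il1r1, the receptor it competes with (108 to 244). In knockout skin the first 4 places were the same, and Il33 was again above Il1a in all 6 libraries without overlap. There 2 pairs were in the other order, each with overlapping ranges. Il1r1 (157) was above Il1rn (155) on average and in 4 of the 6 knockout libraries, and Il18 was above Il1rl1 in 3 of the 6. The length used for each gene is the union of its annotated exons, so a gene with many unused exons, such as Il1rap with 11360 bases, may be placed too low.

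**Figure D1:**
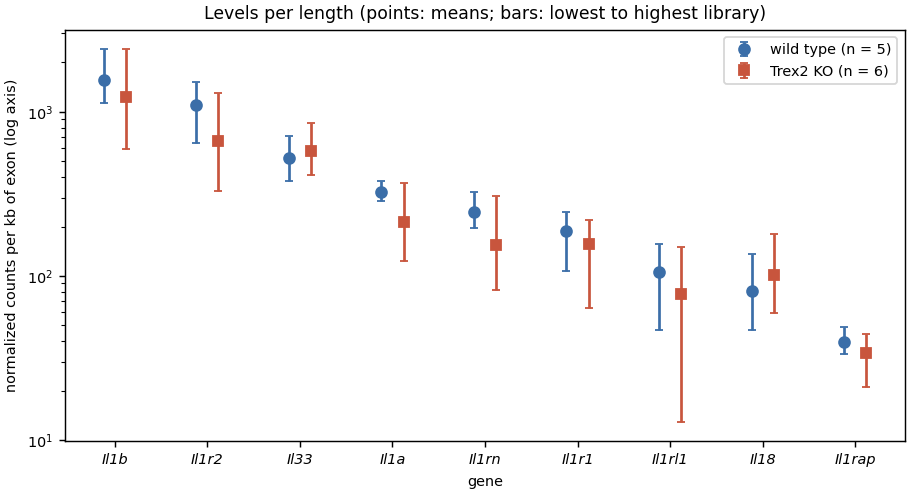
Normalized counts per kb of exon (log axis) for the 9 genes in order of the wild-type mean; points are means of 5 wild-type (circles) and 6 knockout (squares) libraries, and bars run from the lowest to the highest library. Il1b and Il1r2 lead in both genotypes and Il1rap is last.

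The comparison of genotypes asked whether loss of Trex2 goes with other levels of these genes in inflamed skin. None of the 9 passed an adjusted p of 0.05 in limma, against a background of 0.0151% of the 13215 genes tested (2 genes). None passed in edgeR (background 0.0303%) or in DESeq2 (background 4.67%) on the recovered reads. At an unadjusted limma p under 0.05 there were 3 of the 9, Il1a, Il1rn and Il1r2, all lower in knockout, where 11.5% of all tested genes had such a p in that direction. The count at an unadjusted p under 0.05 was 3 in edgeR and 3 in DESeq2. The shares of all tested genes at that p are not given for these tools, so neither count is read further. No member had groups without overlap, which 2.32% of tested genes had. The log2 fold change, knockout minus wild type on the log2(value + 1) scale, was negative for 7 members and positive for Il18 and Il33. The median was −0.47 over the members and 0.01 over all genes tested.

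Il1a, the alarm ligand of keratinocytes, had 595, 745, 564, 575 and 726 normalized counts in wild-type replicates 2 to 6. The knockout libraries ran from 243 in replicate 12 over a median of 352 to 724 in replicate 8. Wild-type values lay close together, while 4 of the 6 knockout libraries were below all of them and replicates 8 and 11 lay within their range. The means were 641 ± 87.2 (SD, n = 5) and 419.8 ± 196 (SD, n = 6), and the log2 fold change was −0.72 (SE 0.26, adjusted p = 0.136 in limma). Its 95% interval, not adjusted for the number of genes, was −1.28 to −0.16. The exact permutation test over the 11 libraries gave p = 0.0541 (two-sided, adjusted over all genes 0.241).

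Il1b, the ligand made by infiltrating myeloid cells, had 2552, 2771, 2794, 2145 and 4604 normalized counts in wild-type replicates 2 to 6. In knockout it ranged from 1127 in replicate 9 to 4588 in replicate 8, with a median of 1946. Replicates 9, 10 and 12 were below every wild-type library, and replicate 8 was level with the highest one. The means of 2973 ± 948 and 2352 ± 1343 (SD, n = 5 and 6) differed by less than either SD. On the log2 scale the difference was −0.47 (SE 0.33, adjusted p = 0.387 in limma), with an interval of −1.19 to 0.24. Without knockout replicates 9 and 12 it was −0.093 (SE 0.29), and the 4 other knockout libraries averaged 2918 ± 1311.

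Il18 was the lowest of the ligands, with 88.9, 67.7, 141, 48.1 and 70.6 normalized counts in wild-type replicates 2 to 6. It ranged from 61.1 in knockout replicate 11 over a median of 86.0 to 186 in replicate 9. The value of wild-type replicate 3 rested on 15 reads, and its 95% Poisson interval of 37.9 to 112 normalized counts covers counting error only. Only replicate 9 was above all wild-type libraries, and wild-type replicate 5 was the lowest of all 11. Knockout minus wild type was 0.31 on the log2 scale (SE 0.31, adjusted p = 0.558 in limma), with an interval of −0.36 to 0.97. Without knockout replicates 9 and 12 it was −0.061 (SE 0.27). Bco2, which overlaps the start of Il18 on the opposite strand, averaged 9.58 normalized counts, 10.1% of the level of Il18, and strand use is not given in the sources used here.

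Il33, the nuclear alarmin, had 1096, 1119, 2046, 1558 and 1718 normalized counts in wild-type replicates 2 to 6. In knockout the lowest library had 1187 (replicate 8), the median was 1353 and the highest had 2471 (replicate 12). Knockout replicates 7, 8, 10 and 11 lay within 1187 to 1356, and replicates 9 and 12 were above every wild-type library at 2407 and 2471. The difference on the log2 scale was 0.11 (SE 0.24, adjusted p = 0.795 in limma), with an interval of −0.40 to 0.62. Without those 2 libraries it was −0.20 (SE 0.18, adjusted p = 0.632 in limma), so the sign of the Il33 difference turned without them.

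**Figure D2:**
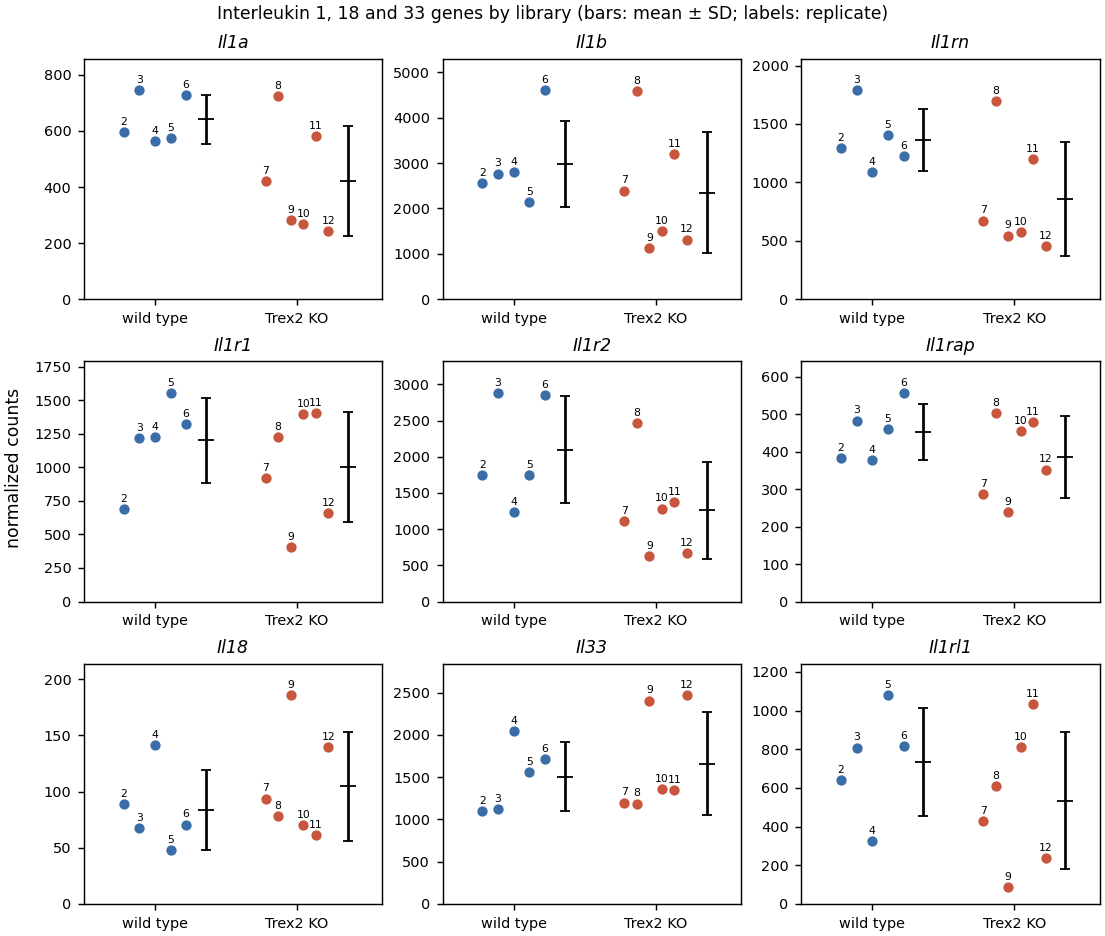
Normalized counts of each gene in the 5 wild-type and 6 Trex2 knockout libraries, 1 point per library labelled with its replicate number, with the mean ± SD beside each group. Knockout replicate 8 is in the wild-type range in every panel, while replicates 9 and 12 are low for the interleukin 1 genes and for Il1rl1 and high for Il18 and Il33.

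Both inhibitors of interleukin 1 had fold changes farther from 0 than the 7 other members, but only narrowly, and neither passed the test over all genes. Those of Il1rl1 (−0.74) and Il1a (−0.72) were less than an SE away, so the inhibitors are not set apart. Il1rn, the receptor antagonist, had 1294, 1787, 1086, 1406 and 1227 normalized counts in wild-type replicates 2 to 6. The knockout libraries went from 455 in replicate 12 over a median of 624 to 1695 in replicate 8, and 4 of the 6 lay below every wild-type library. The 4 low libraries, replicates 7, 9, 10 and 12, reached at most 671, well under the lowest wild-type value, while replicates 8 and 11 were inside the wild-type range. The fitted log2 fold change was −0.82 (SE 0.30, adjusted p = 0.138 in limma), with an interval of −1.45 to −0.18. The exact permutation test gave p = 0.0476 (two-sided, adjusted over all genes 0.234), and 9.66% of all genes had such a p under 0.05 in this direction. Without knockout replicates 9 and 12 the log2 fold change was −0.51 (SE 0.27, adjusted p = 0.444 in limma).

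Il1r2, the decoy receptor, had 1749, 2884, 1236, 1747 and 2856 normalized counts in wild-type replicates 2 to 6. In knockout it ran from 630.3 in replicate 9 over a median of 1199 to 2466 in replicate 8. Replicates 7, 9 and 12 were below all wild-type libraries, and wild-type replicates 3 and 6 were above all knockout libraries. The means were 2094 ± 738 and 1258 ± 668 (SD, n = 5 and 6), a ratio of 0.601. Its fitted log2 fold change was −0.82 (SE 0.33, adjusted p = 0.161 in limma), with an interval of −1.52 to −0.11. Without knockout replicates 9 and 12 it was −0.42 (SE 0.28). The exact permutation test gave p = 0.0693 for Il1r2 (two-sided, adjusted over all genes 0.259). Il1rn was the only 1 of the 9 members with a permutation p under 0.05.

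The signalling receptor subunits differed less. Il1r1 had 686, 1218, 1222, 1555 and 1323 normalized counts in wild-type replicates 2 to 6, and from 407 (replicate 9) to 1401 (replicate 11) in knockout with a median of 1072. Knockout replicates 9 and 12 were below all wild-type libraries, and the other 4 were inside the wild-type range. The log2 fold change was −0.34 (SE 0.31, adjusted p = 0.509 in limma), and it was 0.071 (SE 0.22) without those 2 libraries. Il1rap, the accessory subunit, had 383, 483, 378, 461 and 557 in wild-type replicates 2 to 6 and from 238 over a median of 403 to 502 in knockout, where replicates 7, 9 and 12 were below all wild-type libraries. The log2 difference of −0.27 (SE 0.20, adjusted p = 0.409 in limma) had an interval of −0.69 to 0.16.

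Il1rl1, which encodes the interleukin 33 receptor ST2, varied most among the 9 genes, with an SD of 1.08 log2 units over the 11 libraries. Its wild-type replicates 2 to 6 had 641, 808, 324, 1079 and 814 normalized counts. The knockout libraries ran from 88.9 in replicate 9 over a median of 519 to 1032 in replicate 11. Replicates 9 and 12 were below all wild-type libraries, and the lowest wild-type library was replicate 4. The fitted log2 difference of −0.74 (SE 0.53, adjusted p = 0.395 in limma) had an interval of −1.88 to 0.40. Without knockout replicates 9 and 12 it was 0.0034 (SE 0.32), and the means were 733 ± 278 in wild type and 719.7 ± 260 in the 4 remaining knockout libraries.

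**Figure D3:**
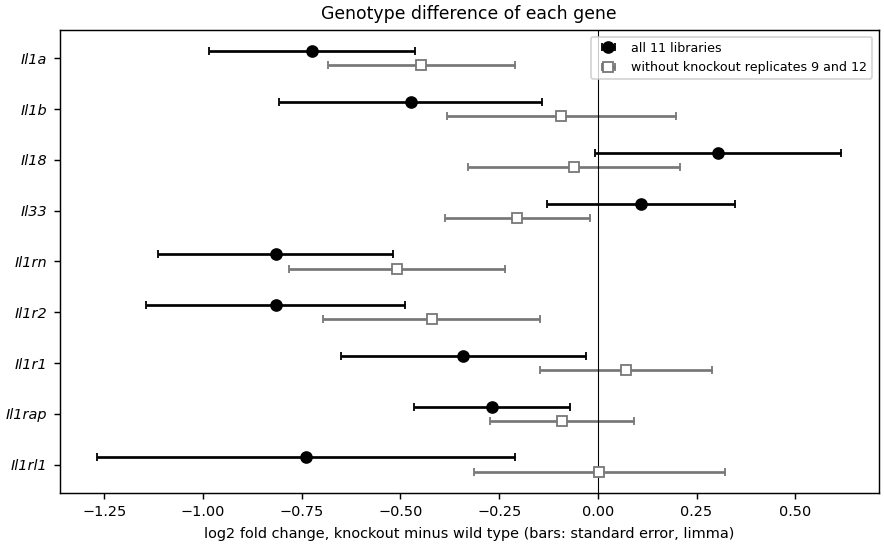
Log2 fold change of each gene, knockout minus wild type, with its standard error in limma, for all 11 libraries (filled circles) and without knockout replicates 9 and 12 (open squares). Il1a, Il1rn and Il1r2 stay at −0.42 to −0.51 without those libraries, and the other 6 genes lie between −0.20 and 0.071.

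Knockout libraries were more scattered than wild-type libraries for all 9 genes. The coefficient of variation of Il1a was 13.6% in wild type and 46.7% in knockout, that of Il1rn 19.5% and 57.0%, and that of Il1rl1 37.9% and 66.4%. Over all tested genes the median coefficient in knockout was 21.3%, and 46.6% of genes had the larger one in knockout. The difference in scatter was not tested. In the 7 members with a negative difference, knockout replicates 9 and 12 were each among the 3 lowest of the 11 libraries for all 7, and both were among the 3 highest for Il18 and Il33, as was wild-type replicate 4. Knockout replicate 8, by contrast, was among the 2 highest libraries for Il1b, Il1rn and Il1rap.

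Marker lists of cell types moved with these libraries, and their part in the member values was not tested. All 14 neutrophil markers were on the negative side (median −1.02, and −0.55 without knockout replicates 9 and 12). None passed limma over all genes, 11 had an unadjusted p under 0.05 (background 11.5%), and DESeq2 called 3 lower (background 2.18%). Their sum ran from 53058 to 123908 normalized counts over the wild-type and from 19088 to 93708 over the knockout libraries, with 19088 in replicate 12 and 42189 in replicate 9. Most of that sum is S100a8 and S100a9, which stressed keratinocytes also make. Of 13 markers of monocytes and macrophages 11 were negative (median −0.60, and −0.38 without those libraries), with sums of 20814 to 26237 (wild type) and 10379 to 22458 (knockout), the 2 lowest being replicates 12 and 9. All 9 tested mast cell markers were negative (median −0.29, and −0.16 without them), with sums of 2582 to 3283 and 1424 to 2948. Hdc, the enzyme that makes histamine, stands in both the neutrophil and the mast cell list and is the most abundant gene of the latter. The log2 fold changes of the mast cell list ran from −0.75 to −0.14. At an unadjusted limma p under 0.05 there were 3 of the 9 (background 11.5%). The mast cell protease Cma1 had 1 of the smaller differences, a log2 fold change of −0.20. Its ranges of 149 to 277 (wild type) and 162 to 286 normalized counts (knockout) overlapped.

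The lists of keratinocyte markers had the opposite sign, with all 28 positive. Medians were 0.90 for 9 basal, 1.73 for 12 suprabasal and 0.85 for 7 stress keratinocyte markers, and without knockout replicates 9 and 12 they were 0.69, 0.99 and 0.44. None passed limma over all genes. At an unadjusted p under 0.05 there were 8, 8 and 3 of them, where 12.9% of all genes had such a p in that direction, and DESeq2 called 4 basal and 1 suprabasal marker higher (background 2.49%). The most abundant were Krt14 and Krt5 (basal), Krtdap and Sbsn (suprabasal) and Krt6a and Krt6b (stress). The sum of suprabasal markers ran from 7305 to 26152 normalized counts over the wild-type and from 11328 to 58459 over the knockout libraries, with 58459 in replicate 9, 43304 in replicate 12 and 26152 in wild-type replicate 4. These are the 3 libraries with the highest Il18 and Il33. Il1a and Il1rn, which keratinocytes also make, were both among the 3 lowest of the 11 libraries in knockout replicates 9 and 12. Fibroblast markers were negative in 9 of 9 (median −0.31, sums 51793 to 71529 and 45582 to 69893), and endothelial markers in 9 of 10 (median −0.33, −0.078 without those libraries, sums 4143 to 6038 and 2366 to 5258). Of the dendritic cell, lymphoid, adipocyte and skeletal muscle lists, the medians were 0.31, −0.19, −0.35 and −0.28, and without knockout replicates 9 and 12 they were 0.19, −0.14, −0.31 and −0.038. No marker on any list lacked reads in all 11 libraries.

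**Figure D4:**
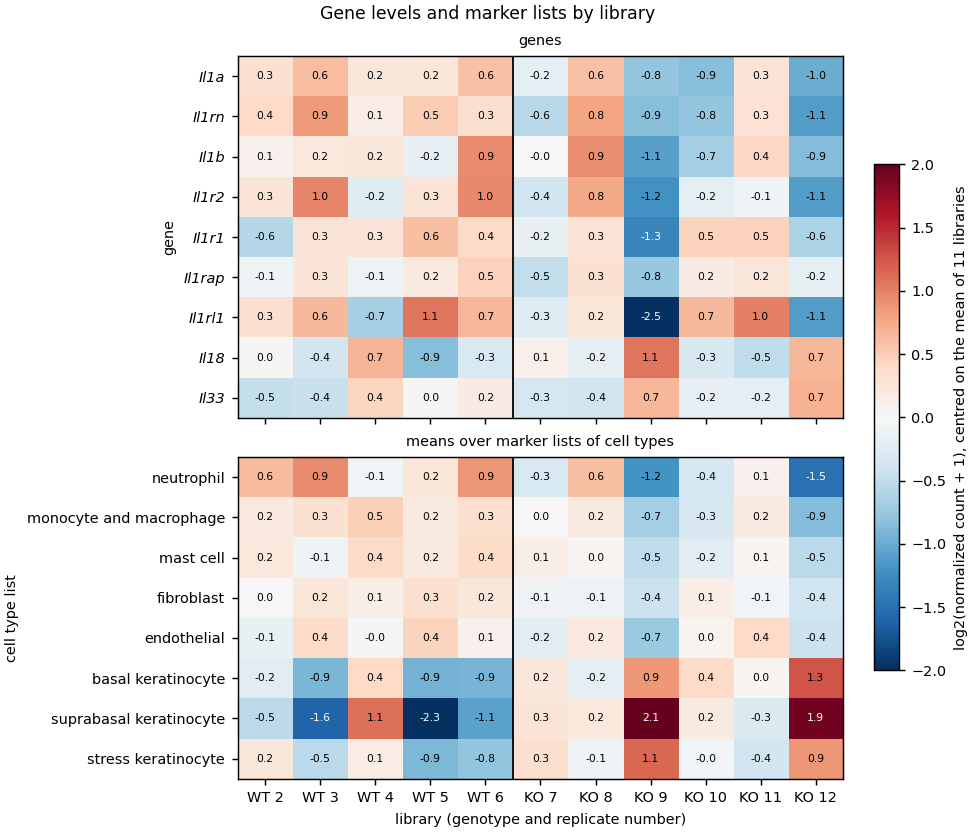
Log2(normalized count + 1) of each gene (top) and mean over tested markers of 8 cell type lists (bottom), each centred over the 11 libraries, with wild type left of the line and knockout right of it. Knockout replicates 9 and 12 are low for the interleukin 1 genes, Il1rl1 and myeloid lists and high for Il18, Il33 and keratinocyte lists.

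Ratios within a library set opposing members against each other and are given without a test. They use normalized counts not divided by exon length, which is 1908 bases for Il1r2, 6363 for Il1r1 and 5535 for Il1rn. They therefore serve to compare libraries and do not show which of 2 members was more abundant. Per kb of exon, Il1r2 was well above Il1r1 in every wild-type library, as given above. Il1rn relative to the sum of Il1a and Il1b was 0.411, 0.508, 0.324, 0.517 and 0.230 in wild-type replicates 2 to 6, and 0.239 to 0.386 in knockout with a median of 0.318. All 6 knockout libraries were below the wild-type median, but the range of wild type enclosed all of them. The ratio of decoy to signalling receptor, Il1r2 to Il1r1, was 2.55, 2.37, 1.01, 1.12 and 2.16 in wild type and 0.917 to 2.01 in knockout, with a median of 1.12. Knockout replicates 10 and 11 were below all wild-type libraries. All 6 knockout libraries were below the wild-type median of 2.16, and wild-type replicates 4 and 5 lay among them. Il1rl1 relative to Il33 ran from 0.158 to 0.722 over the wild-type and from 0.0369 to 0.764 over the knockout libraries, with 20.7 times between the lowest library (knockout replicate 9) and the highest (knockout replicate 11). Replicates 9 and 12 had ratios of 0.0369 and 0.0954, and wild-type replicate 4 had the next lowest.

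**Figure D5:**
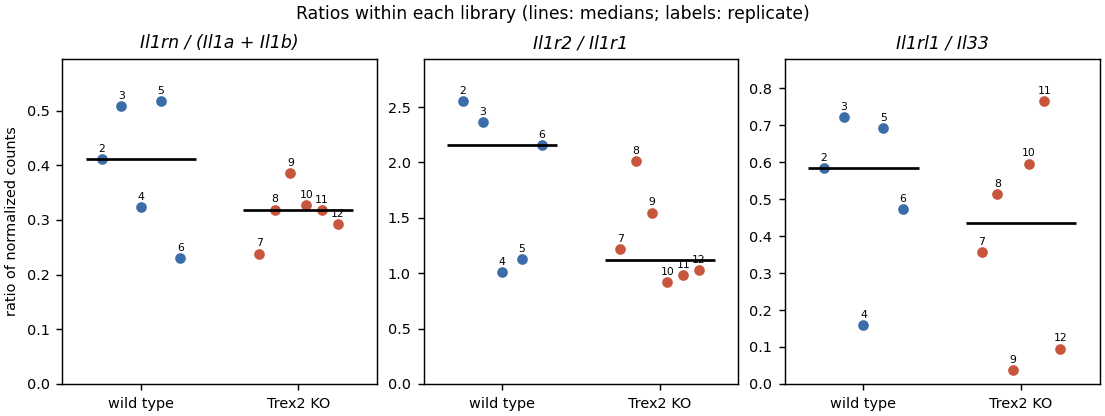
Ratios of normalized counts, not divided by exon length, in each library for antagonist to agonists, decoy to signalling receptor, and ST2 to interleukin 33. Points are libraries labelled with the replicate number and lines are medians. The groups overlap in all 3 panels.

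Members were also compared with each other and with other genes by the root mean square difference of their centred log2 values over the 11 libraries, where 0 would mean identical patterns. Il1a and Il1rn were the nearest pair of members, at 0.19 log2 units, although each varied with an SD of 0.61 and 0.70. Il1b was nearest to Il1a (0.28) and Il1r2 to Il1rn (0.34). Il1r1 and Il1rap were nearest to each other (0.35), and so were Il18 and Il33 (0.41). Il1rl1 was nearest to Il1r1, at 0.61, beside an SD of its own of 1.08. Both were lowest in knockout replicate 9 and highest in wild-type replicate 5. The distance grows with the SD of a gene, which was 0.43 for Il33 and 0.37 for Il1rap.

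Among 12451 other tested genes, the pattern of Il1a was closest to Slfn2, Gstt1 and Fcgr4 (0.18 to 0.20), the last an activating Fc receptor of myeloid cells. Those closest to Il1b were Klra2, Cd53 and Sh2b2 (0.22 to 0.25), of which Cd53 is a tetraspanin of leukocytes. Il1rn was closest to Slc15a3, Pfkfb3 and Casp4 (0.23 each), where Casp4 encodes the caspase that senses bacterial lipopolysaccharide in the cytosol. The decoy Il1r2 was closest to Id2, Slfn1 and Fpr2 (0.17 to 0.19), and Fpr2 is a formyl peptide receptor of neutrophils. Il1r1 was closest to Cyyr1, Plcb1 and Pdgfra (0.14 to 0.15), the last a growth factor receptor that marks fibroblasts. Il1rap was closest to Apaf1, Stambpl1 and Sun2 (0.10 to 0.14), and Il18 to Smagp, Sptssa and Cblc (0.17 to 0.23). The closest genes to Il33 were Ccnf, Lgr4 and Twsg1 (0.21 each). Those to Il1rl1 were Adamts4, Mmp12 and Thbs1 (0.36 to 0.37), which encode a matrix protease, a macrophage elastase and thrombospondin 1.

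The rest of the pathway was followed in 6 lists, and limma over all genes called no gene of any of them. At an unadjusted limma p under 0.05 there were 4 lower and 2 higher among the decoys and inhibitors, 1 and 3 among the other ligands and receptors, 2 and 0 among the proteases, 2 and 3 in the signalling chain, 7 and 0 among genes induced by interleukin 1, and 3 and 0 among those that follow interleukin 33 and 18. Over all genes the shares were 11.5% lower and 12.9% higher, and the counts for the signalling chain (26 tested) and the proteases (15 tested) were near or below them. Among 7 decoys and inhibitory proteins, which include Il1rn and Il1r2, 5 were negative with a median of −0.57 (−0.29 without knockout replicates 9 and 12). Tollip, an inhibitor of the kinases downstream of the receptor, averaged 374 ± 40.4 normalized counts across wild-type and 492 ± 82.4 across knockout libraries (SD, n = 5 and 6), and every knockout library was above every wild-type library, as in 1.02% of all genes. On the log2 scale Tollip stood at 0.39 (SE 0.13, adjusted p = 0.121 in limma). Il1f5, the antagonist of the interleukin 36 receptor, stood at 2.39 (SE 0.82, adjusted p = 0.125 in limma) with 189 ± 255 and 659 ± 527 normalized counts. Only knockout replicates 9 (1404) and 12 (1234) were above all wild-type libraries for Il1f5. The other knockout libraries, at 120 to 479, lay within the wild-type range of 14.5 to 637. Il18bp, which neutralizes interleukin 18, stood at −0.57 (SE 0.25) and Sigirr, an inhibitory receptor, at −0.86 (SE 0.30).

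Of the other ligands and receptors of the superfamily 6 were tested, and 4 were positive with a median of 0.47 (0.28 without knockout replicates 9 and 12). Il1f6, which encodes interleukin 36 alpha, averaged 87.5 ± 94.2 normalized counts across wild-type and 298 ± 262 across knockout libraries (log2 fold change 1.83, SE 0.62, adjusted p = 0.123 in limma). Again only knockout replicates 9 (784) and 12 (397) were above all wild-type libraries. The other knockout libraries, at 63.2 to 220, lay within the wild-type range of 23.6 to 254. Il1rl2, the receptor of interleukin 36, stood at 0.70 (SE 0.27). Both chains of the interleukin 18 receptor were negative, Il18r1 at −0.66 (SE 0.31) and Il18rap at −0.44 (SE 0.28). Without wild-type replicate 4, limma called 5.6% of all genes, and among them were Il1f5, Il1f6 and Il1f8 (interleukin 36 beta) higher and Sigirr lower. That library had the highest sums of keratinocyte markers in wild type, and its part in these calls was not tested. None of the 9 members was called without it.

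Of the proteases and inflammasome genes that act on these ligands, 11 of 15 tested were negative, with a median of −0.19. Casp4 stood at −0.77 (SE 0.27, adjusted p = 0.126 in limma), with means of 295 ± 65.8 normalized counts for wild-type and 182 ± 81.1 for knockout libraries. Gsdmd, the pore protein through which interleukin 1 beta leaves the cell, stood at −0.59 (SE 0.22, adjusted p = 0.139 in limma). Casp1 itself, the protease of interleukin 1 beta and 18, stood at −0.27 (SE 0.16) and the adaptor Pycard at 0.016 (SE 0.22). Of the neutrophil proteases that can also cut interleukin 1 family proteins, Prtn3 stood at −0.81 (SE 0.42, adjusted p = 0.250 in limma), with means of 62.3 ± 35.2 and 34.6 ± 20.3 normalized counts. Elane and Ctsg averaged at most 1.39 normalized counts in either group and were not tested.

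The signalling chain below the receptors showed no common direction, with 14 of 26 genes positive and a median of 0.01. The adaptor Myd88 averaged 602 ± 116 normalized counts across wild-type and 568 ± 42.4 across knockout libraries (log2 fold change −0.06, SE 0.14). Traf6, the ubiquitin ligase of the pathway, stood at 0.75 (SE 0.28, adjusted p = 0.139 in limma) and Map3k7, the kinase TAK1, at 0.39 (SE 0.15). Nfkbia, the NF-kB inhibitor that NF-kB itself induces, had 2217 ± 554 and 1519 ± 436 (log2 fold change −0.55, SE 0.22).

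Genes known to be induced by interleukin 1 were negative in 17 of 20 tested members, with a median of −0.67 (−0.15 without knockout replicates 9 and 12). Saa3, an acute-phase protein, stood at −1.33 (SE 0.35, adjusted p = 0.108 in limma) and Mmp9, the gelatinase of neutrophils, at −1.19 (SE 0.34, adjusted p = 0.108 in limma). DESeq2 called 5 of the list, Cxcl5, Saa3, Lcn2, Mmp3 and Mmp9, all lower in knockout, where it called 2.18% of all genes in that direction. These genes answer to other cytokines too, and Mmp9 also stands in the neutrophil list. Among genes known to follow interleukin 33 and 18, 8 of 14 were tested, 4 of them positive, with a median of 0.0098 (−0.28 without knockout replicates 9 and 12). Il4, Il5, Il13 and Ifng were all below the minimum level, and Il5 had no reads in any library. Gzmb, the protease granzyme B, stood at −1.14 (SE 0.30, adjusted p = 0.108 in limma) and was the 1 gene of this list that DESeq2 called. Cxcl10, an interferon-induced chemokine, stood at −0.98 (SE 0.37).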

How the data were processed

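RNA of treated whole back skin was sequenced after mRNA selection. The tools named by the submitters' processing notes are featureCounts 1.4.6, TopHat2 2.0.8 and DESeq2 1.8.1, with the mouse build GRCm38. Not given in the sources used here are the annotation release, strand setting and order of steps. The deposited values are a signal, counts that the authors divided by 1 size factor per library. Dividing each library by its step gave whole reads for 100% of values (tolerance 0.01).

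Genotypes were compared with limma 3.58.1 (R 4.3.3), on log2(normalized count + 1), letting the variance follow the mean. Of 38406 genes, 22225 had reads and the 13215 with a mean of at least 10 were tested, with Benjamini-Hochberg adjusted p under 0.05 as the threshold. Intervals are 95% and permutation tests are exact and two-sided. The limma code was tested on simulated data of 13215 genes, 200 of them changed. It called 64.3% of changes of 1 log2 unit and 85.9% of changes of 2, and it called 11 unchanged genes. edgeR 4.0.16 and DESeq2 1.42.0 on recovered reads were among 22 alternatives, with other scalings, filters, pseudocounts, a depth covariate and libraries left out. Depth was 1208896 to 15557862 reads.

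All 9 members were named. The rule for naming took the 2 genes of smallest p in each pathway list (up to 4 if any passed), the 3 genes nearest to each member in pattern, and the 2 most abundant of each marker list, of which some are given by list only. Further genes were chosen after their values were seen. Members and lists were chosen with earlier results of these data known. Gene positions are from GENCODE M21 and promoters from RefSeq on GRCm38.p6. Every pair of libraries differed by more than sampling noise, with a chi-square of at least 4.74 per degree of freedom.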

Additional observations from a re-analysis of the deposited data

Results flagged for a closer look

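Il1b in wild-type replicate 6 stood apart from the other wild-type libraries, at 4604 normalized counts with the next highest at 2794. Its gap was 0.736 of the whole range of the group, above the critical value of 0.71 for 5 samples. Chance flags about 1 in 20 groups, and 26 groups were examined. Knockout replicate 8 had almost the same level, 4588.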

How the results depend on the processing

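No member passed the threshold under any of the 22 alternatives. The lowest adjusted p of any member among them was 0.0688 in a limma fit, for Il1a and Il1rn. Il1a (−0.91 to −0.40), Il1b (−0.70 to −0.09), Il1rn (−1.05 to −0.51), Il1r2 (−1.04 to −0.42) and Il1rap (−0.43 to −0.09) kept a negative log2 fold change in all 22. The −0.40 of Il1a was the fit with a depth covariate (adjusted p = 0.892 in limma, against 0.136 in the main limma fit). Without knockout replicates 9 and 12 the sign turned for Il1r1 (0.071), Il18 (−0.061), Il33 (−0.20) and Il1rl1 (0.0034). Il33 also turned with a depth covariate (−0.26), in libraries of 3000000 to 8000000 reads (−0.054), without knockout replicate 12 (−0.020) and without knockout replicate 9 (−0.012), and leaving out 1 library gave −0.020 to 0.23; the cause was not tested. Genes called over all tested were 2 in limma, 4 in edgeR and 617 in DESeq2, and leaving out 1 library gave 2 to 740, with 740 without wild-type replicate 4. List medians moved to −0.29 for the decoys without knockout replicates 9 and 12, and for genes that follow interleukin 33 and 18 to −0.28 without those libraries and 0.49 at a minimum mean of 50, where fewer genes are tested. DESeq2 called 5 genes induced by interleukin 1 and 1 that follows interleukin 33 and 18. Leaving out 1 library gave 0 to 2 called decoys, 0 to 2 other ligands and receptors, 0 to 4 genes induced by interleukin 1 and 0 to 1 that follow interleukin 33 and 18, each highest without wild-type replicate 4. No paired analysis was possible because the groups share no replicate numbers. Depth limits Il18 most, which had 15 reads in wild-type replicate 3.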
